A study of Mus musculus with 205 samples.

Results

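Nd6 is the only protein-coding gene of mouse mtDNA on the minus strand of the reference sequence (1 of 13 genes). Its editing was followed in 7 of the 205 samples of the series, which were taken by the target gene in their labels. The 4 screening samples were NIH/3T3 fibroblasts, a line from mouse embryos, collected at 7 d after transfection with pair 66, 65, 13 or 14, with 1 sample per pair. The other 3 samples were NIH/3T3 cells at 14 d after transfection with pair 66. They were set against 48 screening samples and 36 samples at 14 d that carried editors of the other 12 genes, and against empty-vector cells (2 samples in the screen and 3 at 14 d). All of these cells were transfected transiently with plasmids, the editors being split over 2 of them, and transfectants were sorted at 24 h. The medium of all of them held uridine, on which cells with poor respiration depend. For the off-target fold at 14 d, empty vectors of other transient experiments, collected at 7 d, were also used as an alternative.

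Nd6 encodes a hydrophobic membrane-arm subunit of complex I, the NADH:ubiquinone oxidoreductase that opens the respiratory chain. The subunit is needed for complex I to be assembled, and in humans missense changes in the gene are among the causes of Leber hereditary optic neuropathy. A DdCBE (DddA-derived cytosine base editor) is a pair of TALE proteins that bind on both sides of a site. Each carries one part of the split deaminase DddAtox, a uracil glycosylase inhibitor and a mitochondrial targeting signal, and where the parts meet, a C that follows a T is changed to T. In vertebrate mitochondria TGA is read as tryptophan, so that a C-to-T change on the strand opposite this codon gives TAA, a stop.

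The Nd6 target is the first of 3 TGA codons of the gene. In the reference mtDNA (GRCm38, RefSeq, chromosome M) Nd6 lies at chrM:13552-14070 on the minus strand, and the edited base is position 13814, in codon 86 of 172. Because the gene is read from the minus strand, the C that opposes the codon is in the reference strand, and the edit is C13814T. The codon is in the coding sequence, 256 bp from its first base, and 249 bp beyond the end of Nd5. Nd5 runs the other way and overlaps the last 14 bp of Nd6. The target is shown first as the reference strand (chrM:13801-13827, plus strand), with the edited C in capitals, then as the Nd6 coding strand before and after the edit, with codon 86 in capitals.
Nd6 reference strand: acccaaaattaatCagttagatcccca
Nd6 coding strand: tggggatctaacTGAttaattttgggt
Nd6 coding strand, edited: tggggatctaacTAAttaattttgggt

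The only other target whose edited C lies in the reference strand is that of Nd4l, another membrane-arm subunit of complex I. Nd4l has no TGA codon, and the edit C10147T turns CAA at codon 91 into TAA. Unlike the Nd6 target, this C follows another C rather than a T. The study edited both of these Cs, so that GTC CAA became GTT TAA. Like Nd6, it was edited with the C-terminal part of DddAtox on the H-strand TALE, the reverse of the other 11 genes. Nd5, the neighbour that overlaps Nd6, is an example of these 11: its edited C is opposite the reference strand, and the change reads G11944A. The coding strands of both are given for comparison, with the target codon in capitals (chrM:10135-10161 and chrM:11931-11957, both on the plus strand).
Nd4l coding strand: acagattacgtcCAAaatctcaaccta
Nd5 coding strand: acaacctggcacTGAgtcaccataaat

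The stop would leave 49.4% of the codons of Nd6 before it. For the other 12 genes this share ran between 0.973% in CoI and 91.8% in Nd4l, with a median of 19.5%, and 10 of the 12 lay below Nd6. The 2 later TGA codons of Nd6, at codons 150 and 157, would leave 86.6% and 90.7%. Their coding sequences are shown because they are the TGA codons of Nd6 that were not targeted (chrM:13609-13635 and chrM:13588-13614, minus strand, codon in capitals).
Nd6 codon 150: agttgtgctactTGAatgatggtagta
Nd6 codon 157: gtagtagctgggTGAtctttgtttgcg

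Nd6 also differed from the other genes in the base composition of its coding strand. This strand held 5.97% C, against 22.1% to 30.0% in the other 12 genes, and 28.1% G, against 5.88% to 16.1%. On the reference strand, which is the coding strand of the other 12 genes, Nd6 thus held 28.1% C and 5.97% G, within both ranges. For C and G the contrast is therefore one of strand. For A and T it is not. The Nd6 coding strand held 43.7% T and 22.2% A, which on the reference strand are 43.7% A and 22.2% T. The other 12 genes held 29.5% to 40.7% A and 27.4% to 32.8% T, so that Nd6 was outside these ranges on either strand. Within 8 bp on each side of the edited base, a window of 17 bp, the Nd6 site had 3 C:G pairs, and the other 12 sites had 4 to 10. Apart from the target itself, this window contained a single C after a T, 6 bp from the target and on the complementary strand. Its edit would read G13820A and would change the amino acid of codon 84. Editing at this second base is not among the deposited values. The sequence is that of the reference, and the mtDNA of NIH/3T3 cells may differ from it at other bases.

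In the screen at 7 d, each gene was tested with 4 pairs, and the share of edited reads at the target, in percent, was measured by sequencing of long-range PCR products. This comparison asked how well each pair edits its target. The Nd6 pairs gave 48.9% on-target editing with pair 66, 35.3% with pair 65, 54.3% with pair 13 and 41.3% with pair 14. Only pair 13 passed 50% (1 of 4 pairs), whereas 40 of the 48 pairs of the other genes did. The mean of the 4 Nd6 pairs was 44.9% ± 8.38 (SD over pairs), against 69.2% ± 18.6 over the 48 other pairs. The difference was -24.3 percentage points. The 4 pairs of a gene share a target site and TALEs and are not replicates of the gene, so this difference is given as a description, without a test. By gene mean, Nd6 was the second lowest of 13.

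**Figure D1:**
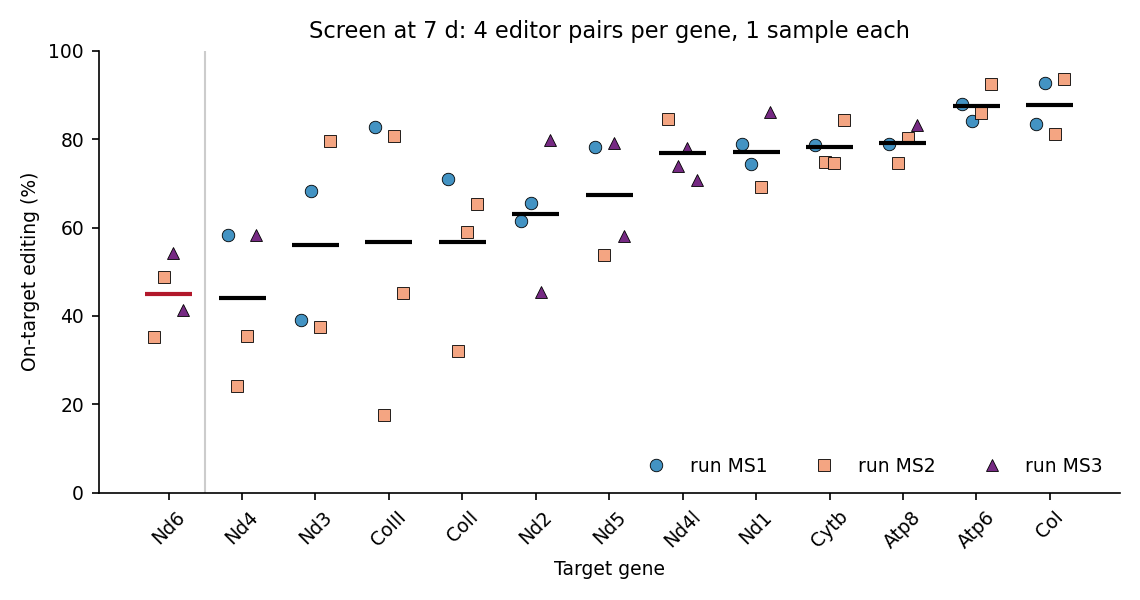
On-target editing (%) at 7 d in each screening sample, by target gene, with Nd6 on the left and the other genes in order of their mean; symbols give the sequencing run and lines the mean of the 4 pairs of a gene. The Nd6 points lie between 35.3% and 54.3%, and of the other genes only Nd4 has a lower mean.

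Nd6 and the other genes overlapped in the screen. Of the 48 other pairs, 39 lay above every Nd6 pair, 6 lay among them and 3 lay below all of them. In 6 of the 12 other genes all 4 pairs exceeded the highest Nd6 pair. Nd4, which encodes a further membrane subunit of complex I, had a mean of 44.0% ± 17.1 (SD, 4 pairs), which differed from that of Nd6 by less than the spread between pairs. Nd4l, the gene that shares the edited strand and the DddAtox orientation of Nd6, averaged 76.8% ± 6.00 (SD, 4 pairs), and its lowest pair (70.7%) exceeded the highest Nd6 pair. The Nd4l target is unlike that of Nd6, in that its C follows a C. The 4 Nd6 pairs spanned 19.0 points. This was close to the median span of the other genes, 21.2 points, which ran between 8.41 and 65.1.

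The screen was sequenced in 3 runs, named MS1 to MS3 in the deposited table. Pairs 66 and 65 were in MS2 and pairs 13 and 14 in MS3, and MS1 held no Nd6 sample. Within MS2 the 2 Nd6 pairs averaged 42.1%, against 64.8% over 22 other pairs (difference -22.7 points). Within MS3 the 2 Nd6 pairs averaged 47.8%, against 71.3% over 10 other pairs (difference -23.5 points). The difference was thus of similar size in both runs. The other pairs were widely spread in MS2, between 17.6% and 93.6% (SD 23.1), and less so in MS3 (SD 13.2).

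The rank of each Nd6 pair was read within its own run. Pair 14 was the lowest of the 12 pairs in MS3, below Nd2 pair 55 (45.4%), and pair 13 was the third from the bottom, between Nd2 pair 55 and Nd5 pair 64 (58.2%). In MS2 pair 65 was the fourth from the bottom of 24 pairs, between CoII pair 45 (32.1%) and Nd4 pair 59 (35.4%). Pair 66 was the eighth, between CoIII pair 74 (45.3%) and Nd5 pair 37 (53.7%).

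Pairs 66 and 65 were compared directly because both were in run MS2 and they combine the Nd6 TALEs differently. In the study's drawing of the screen, each gene has 2 L-strand TALEs (L1, L2) and 2 H-strand TALEs (H1, H2). Pair 66 is drawn as L2-H1, pair 65 as L1-H2, pair 13 as L1-H1 and pair 14 as L2-H2. Editing at the target was 48.9% with pair 66 and 35.3% with pair 65, a difference of 13.6 points and a ratio of 1.39, with 1 sample each and therefore no test. In the other run, pair 13 exceeded pair 14 by 13.0 points. The pair with H1 was thus the higher one in both runs, although the L-strand TALE also differed between the pairs of each run. Over both runs the pairs with H1 averaged 51.6%, against 38.3% with H2, whereas the pairs with L2 averaged 45.1%, against 44.8% with L1. Differences of this size were not rare. Among 24 same-run comparisons between pairs of 1 gene in the other 12 genes, the median absolute difference was 9.70 points, and 9 exceeded that between pairs 66 and 65.

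**Figure D2:**
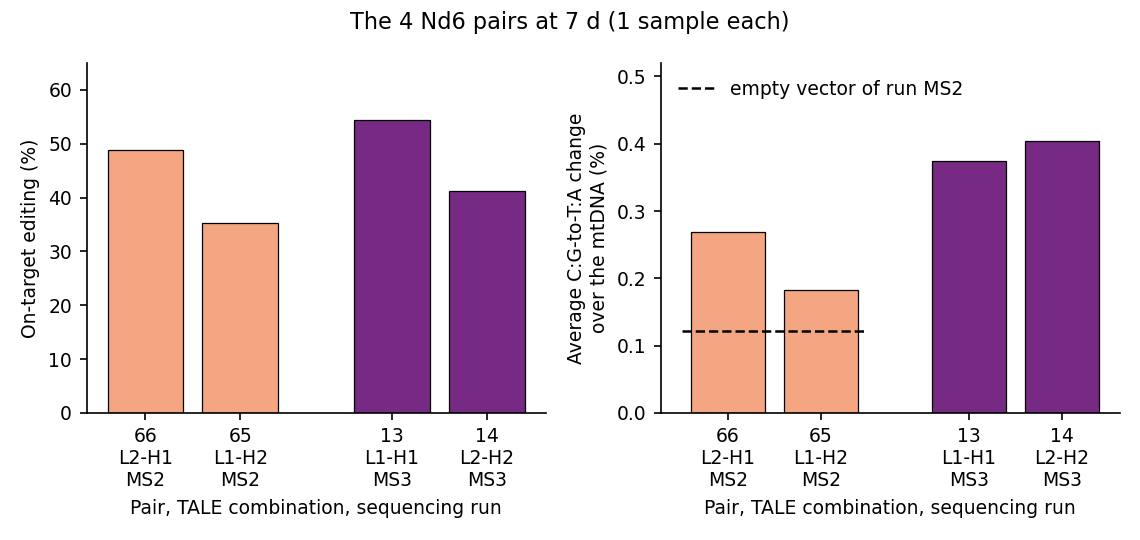
On-target editing (left, %) and the off-target average over the whole mtDNA (right, %) of the 4 Nd6 pairs at 7 d, 1 sample each, with the TALE combination and run under each bar; the dashed line is the empty vector of run MS2 (0.121%). The pair with H1 is higher on target in both runs, and off target only in MS2.

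Off-target editing was given as 1 value per sample, the percent of C-to-T conversion on either strand averaged across the mtDNA. It was 0.269% with pair 66, 0.182% with pair 65, 0.374% with pair 13 and 0.404% with pair 14. The mean of the Nd6 pairs, 0.307% ± 0.102 (SD over pairs), differed from that of the 48 other pairs, 0.329% ± 0.153, by -0.0219 points, less than the spread among the pairs of Nd6 or of the other genes. Within runs, the Nd6 mean was 0.225%, against 0.341% over 22 other pairs, in MS2 (-0.116 points), and 0.389%, against 0.408% over 10 other pairs, in MS3 (-0.0193 points). The sign of the pooled difference turned with the median in place of the mean (0.0211 points) and without pair 65 (0.0198 points).

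The empty-vector sample of run MS2 had 0.121%. Pair 66 was 2.21-fold and pair 65 1.50-fold above it, in single samples. Pair 65 had the lowest average of the 24 pairs in the run, below Nd4l pair 9 (0.197%), whereas pair 66 was in the middle, with 10 of the 22 pairs of other genes below it. Pair 66 thus exceeded pair 65 by 0.0863 points off target as well as by 13.6 points on target. Of the 24 same-run comparisons in the other genes, 15 had a larger off-target difference than this, with a median of 0.0939 points. Above the empty vector, the off-target average per percent of on-target editing was 0.00301 points for pair 66 and 0.00172 points for pair 65, and the median of the 22 other pairs was 0.00314 points. Run MS3, with pairs 13 and 14, had no empty vector.

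At 14 d, the lead pair of each gene was measured in 3 samples, all in 1 sequencing run (NS1). The study's legends call these samples technical replicates, so that the SDs and p-values at 14 d measure technical spread only. The labels name pair 66 as the Nd6 lead, although the study's drawing of the screen marks pair 65; the labels were followed here. On-target editing of Nd6 was 38.1%, 38.5% and 38.2% in the 3 samples, with a mean of 38.3% ± 0.216 (SD, n = 3). All 3 lay below each of the 36 samples of the other genes. Nd6 was thus the lowest of the 13 genes, with a difference of -23.4 points from the mean of the other 12 (61.7%). The highest, CoIII of complex IV, had 74.0% ± 0.143 (SD, n = 3), 1.93 times the Nd6 level. Next above Nd6 were 3 further complex I genes, Nd4 at 48.6% ± 1.49, Nd5 at 49.2% ± 0.843 and Nd4l at 50.7% ± 0.502 (SD, n = 3 each). Nd6 minus Nd4 was -10.3 points, whereas Nd4 and Nd5 overlapped. One Nd4 sample was shallow, with a mean coverage of 2561 and 47.0% on target. Without it the Nd4 mean was 49.4% and the difference -11.1 points, so that Nd5 would be next above Nd6. The remaining complex I genes were higher still, with means of 56.3% in Nd2, 60.4% in Nd1 and 63.3% in Nd3. Each of the 12 comparisons gave p = 0.10 (exact permutation test, two-sided, 3 samples against 3), which is the smallest p that this design allows, and 0.10 after Benjamini-Hochberg adjustment over the 12. Such a p cannot pass 0.05.

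**Figure D3:**
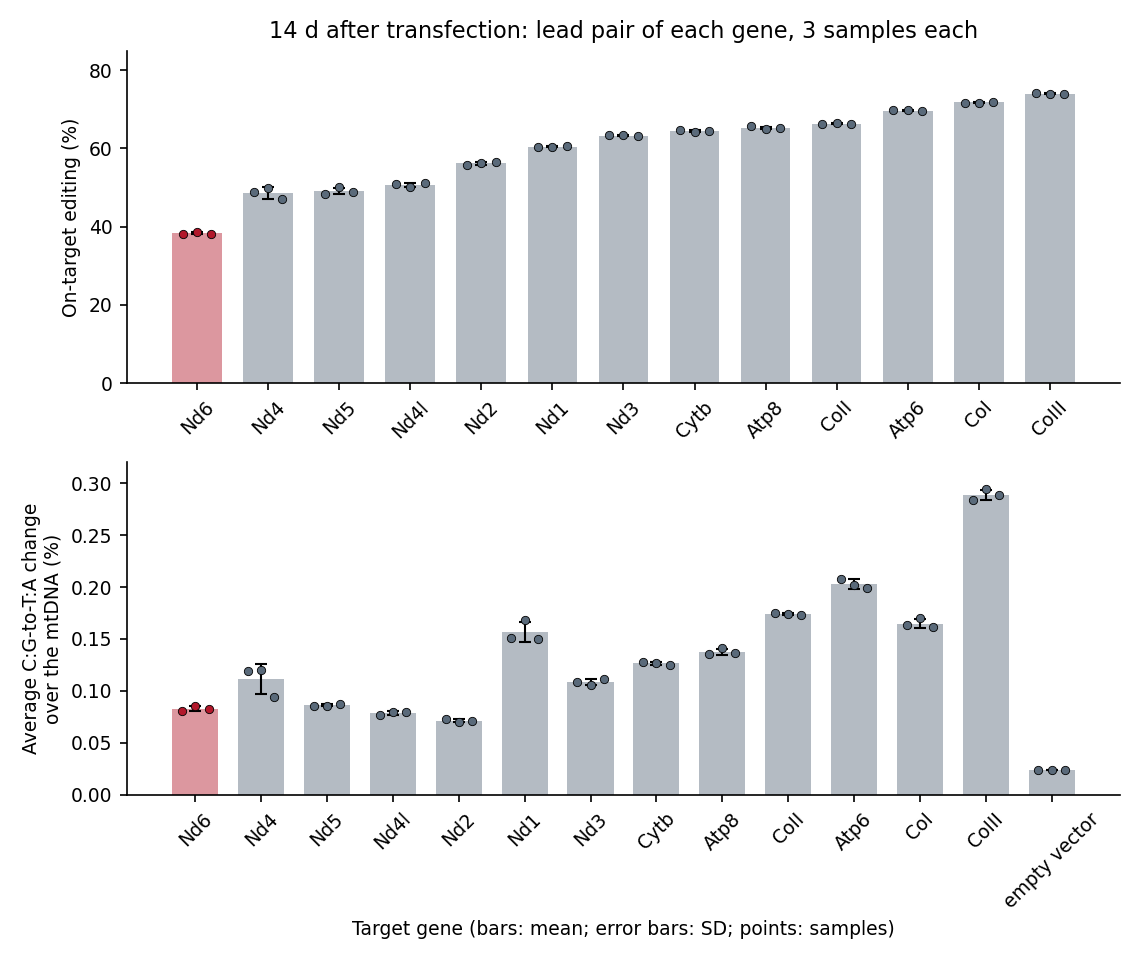
On-target editing (top, %) and the off-target average over the whole mtDNA (bottom, %) at 14 d, with bars for the mean, error bars for the SD and points for the 3 samples of each construct; Nd6 is on the left and the empty vector on the right. Nd6 is lowest on target at 38.3%, and the third from the bottom among the editors off target at 0.0828%.

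Off-target editing at 14 d was 0.0810%, 0.0852% and 0.0822% in the Nd6 samples, against 0.0240%, 0.0240% and 0.0235% in the empty-vector samples. All 3 Nd6 samples lay above all 3 empty vectors. The mean was 0.0828% ± 0.00214 in Nd6 samples and 0.0238% ± 0.000279 in empty-vector samples (SD, n = 3 each), a 3.47-fold difference (exact permutation p = 0.10, the smallest possible). The fold of the other 12 constructs over the same empty vectors ran between 2.99 in Nd2 and 12.1 in CoIII, with a median of 5.54. The fold of Nd6 rests on the empty vectors of its own run. The 8 empty vectors of the other transient experiments had 0.0616% to 0.170%. They were collected at 7 d and sequenced in other runs, and some belonged to experiments on other editor formats. Their mean coverage was 229.6 to 18319.1, against 31439.5 to 40402.1 in the 3 at 14 d. With all 11 taken, at a mean of 0.107%, the Nd6 samples would be at 0.774-fold (exact permutation p = 0.516). That value mixes days, formats, runs and depths.

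Among the 13 editors, Nd6 had the third lowest off-target average. Its samples lay above those of Nd2 (0.0714% ± 0.00179) and Nd4l (0.0787% ± 0.00204) and below those of the other 10 genes, of which Nd5 was nearest (0.0864% ± 0.00108; SD, n = 3 each). The gap to Nd5 was narrow, with the highest Nd6 sample at 0.0852% and the lowest Nd5 sample at 0.0857%. Each of the 12 comparisons again gave the smallest possible p (exact permutation p = 0.10, and 0.10 after adjustment). It is not stated whether the target base enters the average. With its share removed from every sample, 9 genes in place of 10 lay above Nd6 without overlap.

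Relative to on-target editing, Nd6 was not among the lowest genes. The excess of off-target editing over the empty vectors was 0.00154 ± 4.73e-05 points per percent on target in Nd6 samples (SD, n = 3). The other genes ran between 0.000845 in Nd2 and 0.00358 in CoIII, with a median of 0.00177. In this ratio Nd6 lay above Nd2, Nd4l, Nd5 and Nd3, overlapped Cytb and Nd4, and lay below the 6 remaining genes. The tests gave p = 0.10 to 0.30 (exact permutation test, 0.12 to 0.30 after adjustment over 12). The overlap with Nd4 rests on 1 Nd4 sample with a mean coverage of 2561, where the next lowest edited sample at 14 d had 37126. Without it, 7 genes lay above Nd6.

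**Figure D4:**
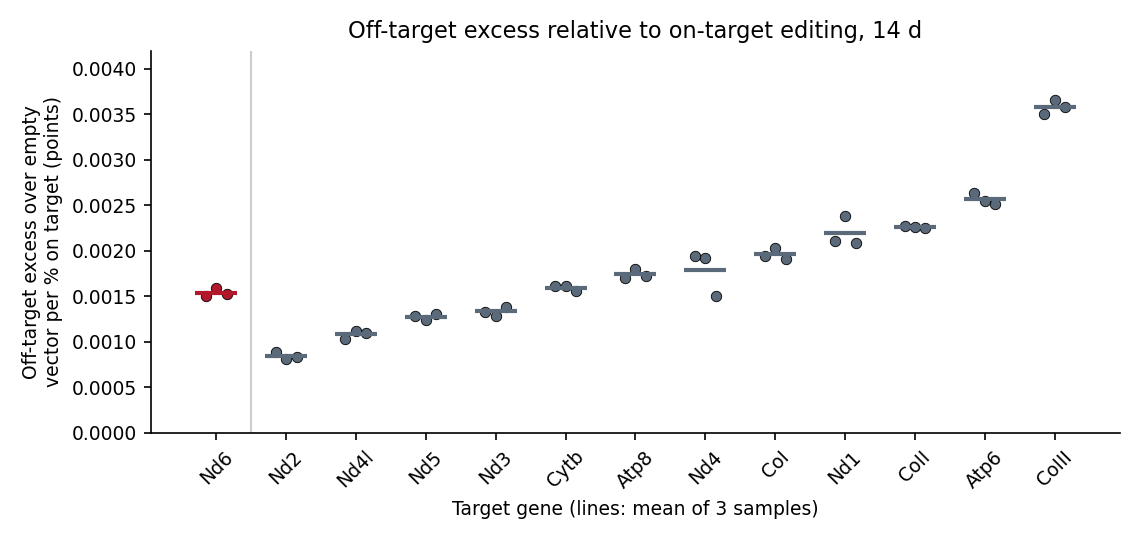
Off-target excess over the mean of the empty vectors at 14 d, divided by on-target editing (points per percent), with points for samples and lines for means of 3; Nd6 is on the left and the other genes follow in order. Nd6, at 0.00154, lies between Nd3 and Cytb, with 1 of the 3 Nd4 samples at its level and the others above it.

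The lead pairs were also compared between the 14-d experiment and the screen at 7 d. With Nd6 pair 66, on-target editing was 38.3% ± 0.216 at 14 d (SD, n = 3) and 48.9% in the single sample at 7 d, a difference of -10.6 points. In the other 12 genes, editing was also lower at 14 d than at 7 d, with differences between -27.2 points in Nd4l and -4.50 points in CoII and a median of -9.53 points. Nd6 was within this range. Set against pair 65 at 7 d (35.3%), the pair marked in the study's drawing, the difference would be 3.02 points, with a sign opposite to that of all 12 other genes. Nd6 was the lowest of the 13 leads at both times, with Nd5 next above it at 7 d (58.2%). The off-target average of pair 66 was 0.0828% at 14 d and 0.269% at 7 d. The empty vectors of the same runs differed too, with a mean of 0.0238% at 14 d and a single value of 0.121% at 7 d. As a fold over them, pair 66 was higher at 14 d (3.47) than at 7 d (2.21). In points above them, it was lower at 14 d (0.0590) than at 7 d (0.147). The direction of the off-target difference thus depended on the scale. The experiments differed in day and in run. The study had also chosen the leads by their on-target and off-target values in the screen, so that the 7-d values are selected ones. The effects of day, run and selection cannot be told apart.

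**Figure D5:**
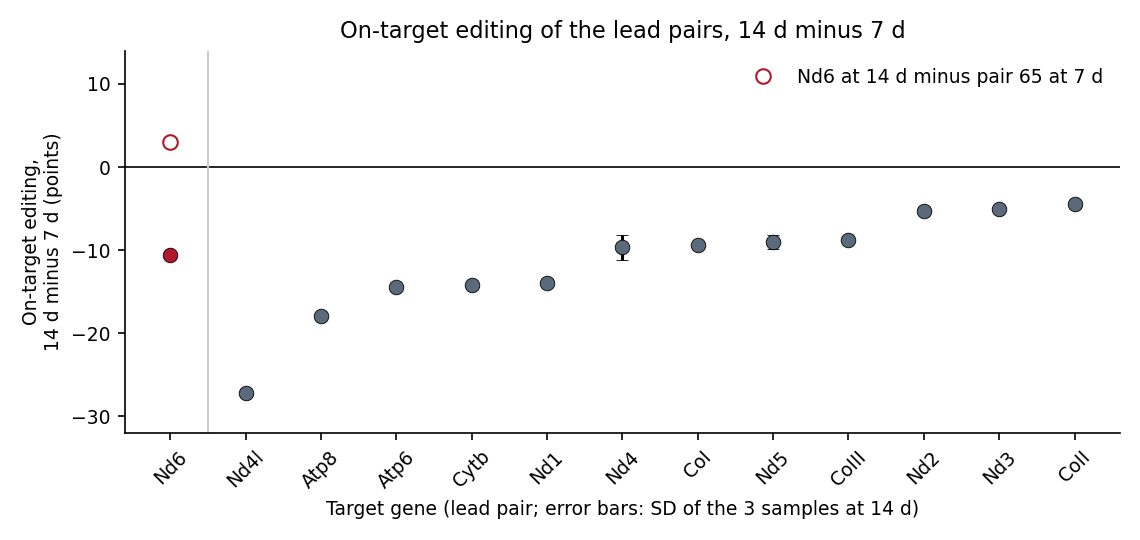
Difference in on-target editing (percentage points) between the mean of 3 samples at 14 d and the single screening sample at 7 d of the same lead pair, with error bars for the SD at 14 d; Nd6 is on the left. The Nd6 value is -10.6 for pair 66 (filled) and 3.02 if pair 65 is taken at 7 d (open), and all other genes lie below 0.

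Depth differed between the experiments. The mean coverage of the mtDNA was 609.5 for pair 66, 928.7 for pair 65, 9980.0 for pair 13 and 11008 for pair 14, and 68302, 55598 and 59673 in the 3 Nd6 samples at 14 d. Some neighbours named in the MS2 ranks were shallower still, with 92.6 for Nd4l pair 9, 107.9 for Nd4 pair 59 and 224.6 for Nd5 pair 37. The order of Nd6 pairs relative to these is therefore uncertain. The depth at the target base is not given, so that binomial intervals could not be given, and errors are the spread between samples alone.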

How the data were processed

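NIH/3T3 mtDNA was amplified by the authors as 2 overlapping long-range PCR products, made into Nextera XT libraries, sequenced, trimmed with Trim Galore (cutadapt), aligned to chromosome M of GRCm38 with Bowtie2 and read out with SAMtools and VarScan; versions are not given in the sources used here. The on-target and off-target percent values are as deposited: the percent of reads with the edit at the target, and the C-to-T conversion on either strand averaged across mtDNA positions that are not stated. The coverage was deposited as the mean depth, without normalization. PCR reads carry no molecular identifiers. In the tables used, 4 entries that match no sample were not used, and neither were the quality scores and the second Nd4l value.

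Means, SDs, ratios and two-sided exact permutation tests over samples were computed with python 3.11.15, numpy 2.4.6 and pandas 2.3.3, without filter or transformation. The tests were tested on simulated data, and only those at 14 d are reported, since screening pairs are not replicates of a gene. Target codons were located in the GRCm38 mtDNA (16299 bp, 5989 C:G pairs); the study's map numbers some of these bases differently. All 13 genes could be named, with single pairs of other genes only where they were next to an Nd6 pair in the same run, or of Nd4l. The samples, genes and comparisons were chosen with earlier results of these data known. Alternatives covered runs, medians, gene sets, coverage, scales, the share of the target base, the empty vectors and left-out samples.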

Additional observations from a re-analysis of the deposited data

Results flagged for a closer look

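Of the 4 TALE contrasts among the Nd6 pairs, 3 changed sign between the combinations in which they were measured, in single samples, and none of these differences was tested. The exception was H1 minus H2 on target, at 13.6 points in run MS2 and 13.0 points in run MS3. The L-strand TALE also differed within each run, with L2 beside H1 in MS2 and L1 beside H1 in MS3. Neither difference is therefore one of H1 and H2 alone. Off target, the pair with H1 minus the pair with H2 was 0.0863 points in run MS2 (pair 66 minus 65) and -0.0298 points in run MS3 (pair 13 minus 14). On target, the pair with L2 minus the pair with L1 was -5.40 points with H1 (pair 66 minus 13) and 6.00 points with H2 (pair 14 minus 65). Off target, the same contrast was -0.106 points with H1 and 0.222 points with H2. Both L2-L1 contrasts set a sample of one run against a sample of the other, so that the combination and the run cannot be told apart. Dixon's outlier test sets the gap beside the most extreme value against the whole range. It flagged none of the 4 Nd6 pairs in on-target, off-target or coverage values. With 4 values it can flag only a very large gap, so it cannot decide whether a pair stood apart. It also cannot see a split between runs. Such a split was present in coverage, with 609.5 and 928.7 in MS2 and 9980 and 11008 in MS3.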

How the results depend on the processing

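The lower on-target editing of Nd6 in the screen kept its direction in all 11 alternatives. It was -22.7 points within MS2, -23.5 within MS3, -29.6 with medians, -19.1 against complex I genes only, and -27.4 to -21.1 with single Nd6 pairs left out. The highest Nd6 pair (54.3%) lay below the mean (69.2%) and the median (74.7%) of the other pairs. Medians and left-out Nd6 pairs therefore could not turn the direction. A permutation test over pairs was also computed, but pairs are not replicates of a gene and its p is not used. The off-target difference was -0.116 within MS2 and -0.0193 within MS3, turned to 0.0211 with medians and ran between -0.0541 and 0.0198 with single pairs left out. The mean fold of pairs 66 and 65 over the empty vector, 1.86, became 2.46 against both screening empty vectors and 1.80 without the target's share. Pair 66 minus 65 was 0.81 log2 odds on target, and off target 0.0840 without the target's share and 0.00128 as excess per percent on target. At 14 d, Nd6 minus the other constructs was -25.6 with their median, -24.4 without Nd4l, -16.5 for complex I only, -1.395 in log2 odds and -23.5 to -23.3 without single Nd6 samples. The fold over the empty vectors was 0.774 with those of all transient experiments, and 3.42 to 3.51 with single samples left out. Most of the former came from other runs, from 7 d and from shallower libraries. The 14 d minus 7 d difference was 3.02 against pair 65, -6.65 against the mean of 4 pairs, -0.63 in log2 odds, and -10.7 to -10.5 with single samples left out. The replicate numbers at 14 d are not said to mark a shared batch. With the replicate block, Nd6 was below 12 of 12 genes on target and 10 off target, at 3.47-fold over the empty vector (exact sign-flip p = 0.25, the smallest possible). The samples of Nd6 and of each other gene did not overlap on target or off target. Neither the replicate block nor leaving out samples could therefore change these counts. Leaving out single Nd6 samples gave 6 to 7 genes above Nd6 in excess per percent on target. The counts of 12 and 10 were likewise fixed in advance without the shallow Nd4 sample, an alternative chosen after seeing the data.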
